A study of Mus musculus with 4 samples.

Results

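Inflammatory cytokine genes and the genes that restrain their signals were examined in large peritoneal macrophages (LPMs), the long-lived macrophages of the mouse peritoneal cavity. A set of 10 genes was chosen by name. It held the cytokines *Il1b*, *Tnf*, *Il6*, *Il18* and *Il10*, the receptor antagonist *Il1rn*, the NF-κB regulators *Nfkbia*, *Nfkbiz* and *Tnfaip3*, and the suppressor of cytokine signalling *Socs3*. Of the 18364 genes in the table, 8 were members of this set, while *Il1b* and *Il10* had no entry under those symbols and were not analysed here. An antisense gene named for *Il1b* is a separate gene and was not used in its place.

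LPMs were sorted as F4/80+ MHCII- CD102+ cells from C57BL/6 mice of 8 weeks, and bulk RNA was sequenced from 2 libraries labelled WT and 2 labelled Rxra-KO. The study deleted *Rxra*, which encodes the nuclear receptor RXRα, by crossing mice with loxP-flanked *Rxra* alleles (*Rxra* fl/fl) to mice with Cre at the *LysM* locus, and names *Rxra* fl/fl mice as the controls. *LysM* is active in myeloid cells generally, so the deletion is not limited to LPMs. How many mice gave each library is not stated. The comparison asks how these genes differ in LPMs between the labelled genotypes.

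As background, NF-κB dimers are held in the cytoplasm by IκB proteins such as IκBα, the product of *Nfkbia*. Signals from Toll-like, IL-1 and TNF receptors lead to the breakdown of IκBα, and the freed dimers switch on cytokine genes together with *Nfkbia* and *Tnfaip3*, which close the loop. *Nfkbiz* encodes IκBζ, a nuclear cofactor that NF-κB needs at a subset of its targets, including *Il6*. *Tnfaip3* encodes A20, an enzyme that edits ubiquitin chains on signalling proteins. IL-6 and IL-10 signal through JAK kinases and STAT3, and SOCS3, a STAT3 target, dampens the receptor of IL-6 but not that of IL-10. IL-18 and IL-1β are made as precursors that caspase-1 cuts, and IL-1RA, the product of *Il1rn*, blocks the IL-1 receptor. Resting tissue macrophages are known to hold little *Tnf* or *Il6* mRNA.

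Promoters of the measured genes were searched for letters that NF-κB, STAT and RXR dimers bind. RefSeq entries of 250 bases before to 50 bases after the start (GRCm38.p6) were found for 7 of the 8 measured genes, with 10 entries in all, and *Nfkbiz* had none. The kappaB consensus, the site that NF-κB dimers bind, was searched on both strands and matched in 3 of the 7 genes, against 4.51% of 32851 promoters of the same length. A gene counted once if any of its entries matched, while the background counts single promoters, so the shares differ in unit. The STAT motif TTCNNNGAA, which is its own reverse complement, matched in 1 of the 7, against 8.30% of promoters. The direct repeats DR1 and DR5, which RXR dimers bind, matched in 0 of the 7, against 0.222% and 0.0974% of promoters. Matches this rare would seldom occur among 7 genes, so their absence carries little information. Both sequences below come from feedback genes whose levels did not overlap between the groups, and capitals mark the kappaB match in *Nfkbia* (chr12:55492598-55492897, minus strand) and the STAT match in *Socs3* (chr11:117969317-117969616, minus strand).

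Nfkbia: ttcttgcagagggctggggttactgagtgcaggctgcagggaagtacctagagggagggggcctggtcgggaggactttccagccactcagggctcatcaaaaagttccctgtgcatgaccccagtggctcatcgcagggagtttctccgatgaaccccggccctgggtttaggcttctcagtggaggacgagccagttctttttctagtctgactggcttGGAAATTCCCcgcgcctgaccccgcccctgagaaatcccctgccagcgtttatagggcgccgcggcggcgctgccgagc

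Socs3: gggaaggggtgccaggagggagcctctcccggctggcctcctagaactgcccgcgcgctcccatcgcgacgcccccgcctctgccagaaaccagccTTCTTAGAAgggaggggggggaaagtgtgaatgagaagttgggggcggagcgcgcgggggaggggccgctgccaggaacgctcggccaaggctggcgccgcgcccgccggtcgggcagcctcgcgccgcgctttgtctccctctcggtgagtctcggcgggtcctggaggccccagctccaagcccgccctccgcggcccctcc

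The *Nfkbia* match began 29 bases before the start and the *Socs3* match 154 bases before it. The *Il6* promoter (chr5:30012864-30013163, plus strand) held GGGATTTTCC, beginning 44 bases before the start. A *Tnfaip3* promoter (chr10:19015361-19015660, minus strand) held GGGACACCCC and GGAAATCCCC, beginning 125 and 12 bases before it. These matches describe letters in a window, and binding was not measured here.

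Depth set what could be seen. Libraries held 629030 to 1047021 recovered reads, and 1 read was worth a value of 0.993 to 1.51 on the deposited scale, called the normalised read count here. *Rxra* itself did not fall in either library labelled Rxra-KO, with 20 and 28 reads in WT against 33 and 77. It was higher in both, with a log2 fold change of 0.99 (95% interval 0.27 to 1.70), and was not called (limma adjusted *p* = 0.183). *Rxrb* had 13 and 16 reads against 13 and 23 (limma adjusted *p* = 0.973). The table gives 1 value per gene, so reads from the loxP-flanked part cannot be told from the rest, and every direction below is between libraries as labelled. *Lyz2*, the gene that carries Cre, fell by 1.03 on the log2 scale (limma adjusted *p* = 0.00163). Of 8 LPM markers, 7 had lower means and 6 were called lower, with summed values of 37235 and 39296 in WT against 19463 and 21539. *Prg4* gave most of each sum, with 28429 and 29683 in WT against 15129 and 16567. The study names *Gata6* and *Icam2* as lower from these libraries, so these are not independent, and *Icam2* encodes CD102, which the sort used. By flow cytometry the study also reports lower GATA-6 and CD102 protein in LPMs of mice with this deletion. Of 8 markers of small peritoneal macrophages and monocytes, 7 of them named by the study from these libraries and so not independent, 7 were called higher, with sums of 374 and 110 against 4332 and 5806. In bulk RNA, fewer cells of a type and less RNA per cell cannot be told apart, and the part of these shifts in the results below was not tested.

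Across the set, 0 of the 8 measured genes were called with limma, against 2.29% of all genes tested. A call required a log2 fold change of at least 0.6 in either direction with an adjusted *p* under 0.05, corrected across 18364 genes. At an unadjusted *p* under 0.05 there were 2 genes, *Nfkbia* and *Nfkbiz*, against 10.1% of all genes. EdgeR on the recovered reads called 1 of the 8, *Nfkbiz*, against 446 of all 18364 genes. DESeq2 called 0 of the 8, against 246 of the 5547 genes to which it gave an adjusted *p*. By DESeq2 only *Nfkbiz* of the set had an unadjusted *p* under 0.05. The groups did not overlap for 4 of the 8 genes, against 38.1% of all genes, with *Nfkbiz* higher and *Nfkbia*, *Socs3* and *Il1rn* lower in the libraries labelled Rxra-KO. *Tnf* and *Tnfaip3* had at most 3 reads in every library, so no fold is given for them. Among the other 6 genes, 4 log2 fold changes were negative and 2 positive, with a median of -0.48, beside 0.02 over all genes with a fold. An exact permutation test over the 4 libraries reaches a two-sided *p* of 0.333 at the lowest, so none is given for single genes.

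**Figure D1:**
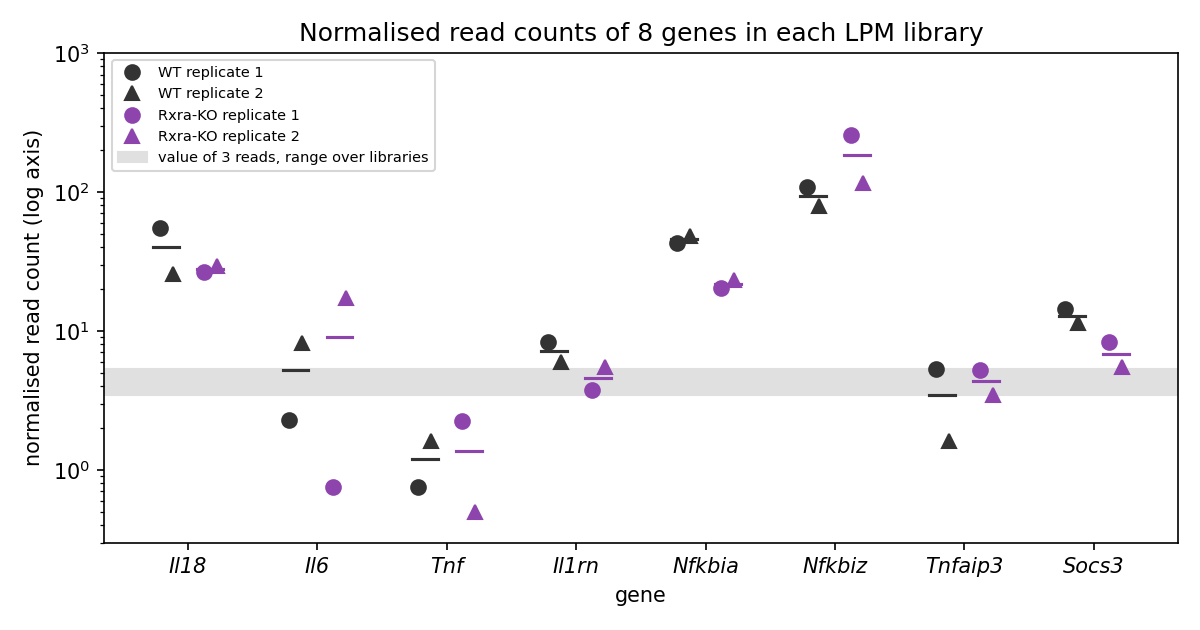
Normalised read counts on a log axis for the 8 measured genes, with 1 point for each library and a bar at each group mean (n = 2). The grey band is the value of 3 reads, 3.48 to 5.30 over the libraries. *Tnf* lies below the band, *Tnfaip3* in or below it, and *Nfkbiz* is highest in Rxra-KO replicate 1 at 255.

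*Nfkbiz* was the best-measured gene of the set. It had 71 and 72 reads in WT replicates 1 and 2 and 169 and 117 reads in Rxra-KO replicates 1 and 2. Its normalised read counts were 108 and 78.6 for WT, against 255 and 117 for Rxra-KO, so both libraries labelled Rxra-KO lay above both WT libraries, 1 of them narrowly. The WT mean was 93.5 ± 20.9 and the Rxra-KO mean 186 ± 97.9 (SD, n = 2). The log2 fold change was 0.90 (SE 0.28, 95% interval 0.35 to 1.44), and limma gave an adjusted *p* = 0.0564. Rxra-KO replicate 1 set the size of the difference, since the log2 fold change was 0.34 without it (limma adjusted *p* = 0.974), 0.67 without WT replicate 2 (limma adjusted *p* = 0.56), 1.46 without Rxra-KO replicate 2 (limma adjusted *p* = 0.0013) and 1.12 without WT replicate 1 (limma adjusted *p* = 0.0455). EdgeR gave 0.99 with an adjusted *p* = 0.0201, and DESeq2 gave 0.98 with an adjusted *p* = 0.236. Summed reads of 286 against 143, scaled by depth, gave a ratio of 1.89, with an exact 95% interval of 1.54 to 2.33 that covers counting error only.

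Immediate early genes are switched on by cells within minutes of a signal or of handling. *Egr2*, a zinc-finger factor of this list, was also highest in Rxra-KO replicate 1, with values of 38.6 and 11.4 for WT, against 249 and 58.1 for Rxra-KO. The other 15 genes of the list had a summed value of 315 in that library, inside the range of 309 to 404 over the other 3. Single genes within this sum went both ways. *Egr3*, *Nr4a1* and *Hspa1b* were also highest in that library, at 20.3, 23.3 and 21.8. *Klf2*, which had the largest value in the sum, was lowest there, at 73.0, as were *Ier5* and *Atf3*, at 30.9 and 15.8. Whether a signal or handling shaped these levels was not tested. The 3 genes with the profile most similar to *Nfkbiz* over the 4 libraries, among 3466 genes with a mean value of at least 50, were *Hsph1*, which encodes a heat shock chaperone, *Eps15*, an endocytic adaptor, and *Sesn1*, a sestrin. Their Euclidean distances to it were 0.127, 0.188 and 0.252 in centred log2 units. *Hsph1*, for example, had 41.6 and 26.6 for WT, against 95.6 and 43.2 for Rxra-KO.

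*Nfkbia* went the other way. It had 28 and 44 reads for WT, against 13 and 23 for Rxra-KO. The normalised read counts were 43.2 and 48.3 against 20.3 and 23.3, so the groups were apart and each was narrow, with means of 45.7 ± 3.62 and 21.8 ± 2.13 (SD, n = 2). The log2 fold change was -1.03 (SE 0.41, 95% interval -1.84 to -0.23), which did not pass across all genes (limma adjusted *p* = 0.252). EdgeR gave an adjusted *p* = 0.264 and DESeq2 an adjusted *p* = 0.568. The log2 fold change lay between -1.13 and -0.94 on leaving out any 1 library, without a call. Summed reads of 36 against 72 gave a depth-scaled ratio of 0.473, with an exact counting interval of 0.308 to 0.716. *Nfkbia* carries the kappaB match shown above.

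**Figure D2:**
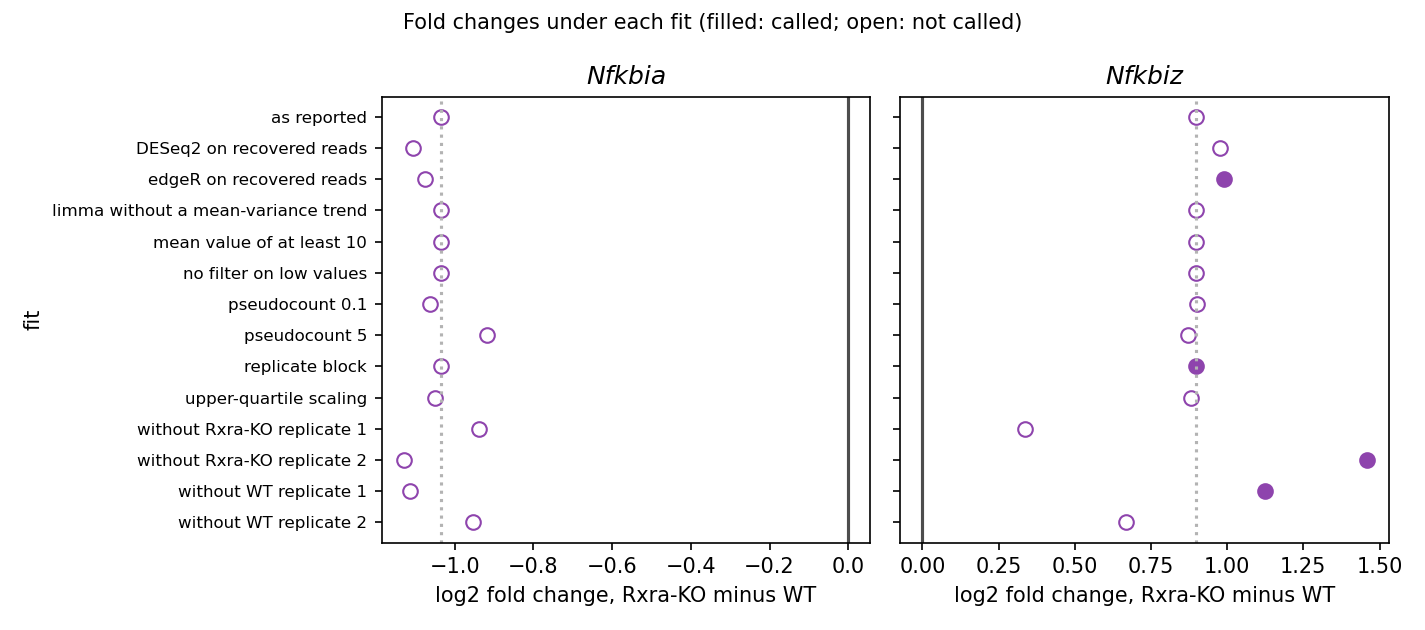
Log2 fold changes of *Nfkbia* (left) and *Nfkbiz* (right), Rxra-KO minus WT, on the horizontal axis, with 1 row for each fit and filled points where the gene was called. *Nfkbia* stays between -1.13 and -0.92 and is called in 0 fits, while *Nfkbiz* runs from 0.34 without Rxra-KO replicate 1 to 1.46 without Rxra-KO replicate 2.

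The other feedback members were near the limit of detection. *Socs3* had 9 and 10 reads in WT and 5 in both libraries labelled Rxra-KO. In normalised read counts this was 14.4 and 11.4 against 8.28 and 5.46, so the groups did not overlap, yet only a few reads separated them. Its log2 fold change was -0.83 with a 95% interval of -2.16 to 0.49 (limma adjusted *p* = 0.785), which spans falls and rises alike at this depth. *Tnfaip3* had 3 and 1 reads for WT, against 3 and 3 for Rxra-KO. Both groups were at or under the 3 reads taken as the floor, which correspond to values of 3.48 to 5.30.

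Among the cytokines, *Il18* was the only one with more than 20 reads in any library. It had 36 and 23 reads for WT, against 17 and 29 for Rxra-KO. Its normalised read counts were 55.3 and 25.5 against 26.3 and 29.3, so WT replicate 1 was high and the other 3 libraries were alike. The log2 fold change of -0.42 had a 95% interval of -1.23 to 0.38 (limma adjusted *p* = 0.84) and became 0.12 without WT replicate 1. *Il6* was uneven within both groups, with 1 and 7 reads for WT, against 0 and 17 for Rxra-KO. Its highest value, 17.4 in Rxra-KO replicate 2, and its lowest, 0.753 in Rxra-KO replicate 1, were in the same group, and a fold change near 0, at 0.05, carried an interval of -1.54 to 1.65 (limma adjusted *p* = 0.994). EdgeR and DESeq2 on the recovered reads gave log2 fold changes of 0.90 and 0.86, without a call, and the depth-scaled ratio of summed reads, 17 against 8, was 2.01 with an exact counting interval of 0.823 to 5.39, so the value near 0 depends on the log2(value + 1) scale. By limma it was -1.64 without Rxra-KO replicate 2, 1.75 without Rxra-KO replicate 1 and -0.69 without WT replicate 1. *Tnf* had 0 and 1 reads for WT, against 1 and 0 for Rxra-KO, and where no read was found a value of up to 3.48 to 5.30 is allowed, by library.

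*Il1rn*, the antagonist, had 5 and 5 reads for WT, against 2 and 5 for Rxra-KO. Its normalised read counts were 8.33 and 5.97 against 3.76 and 5.46. The groups did not overlap, but 3 of the 4 libraries held the same number of reads and differed in depth alone. The log2 fold change was -0.54 with an interval of -2.05 to 0.97 (limma adjusted *p* = 0.926).

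**Figure D3:**
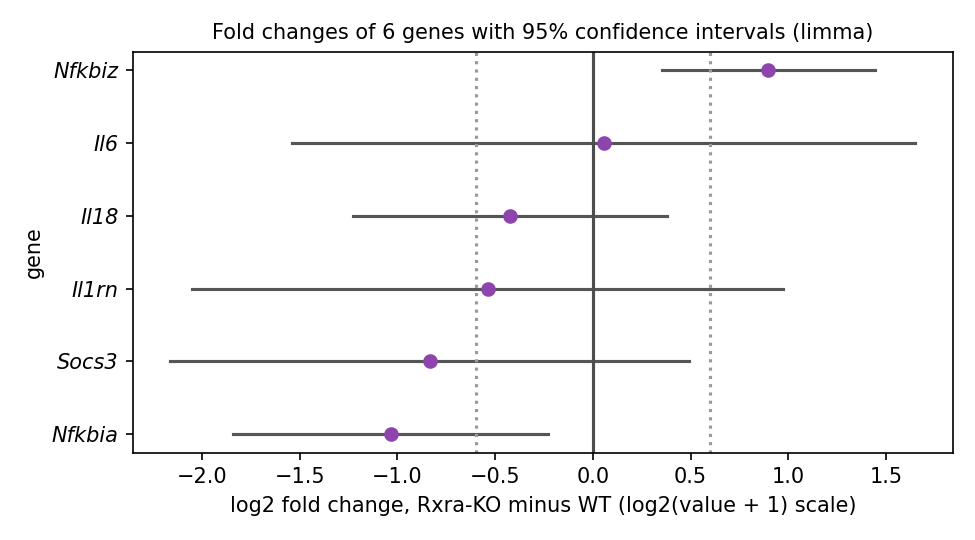
Log2 fold changes (points) with limma 95% confidence intervals (lines) for the 6 genes with a fold, Rxra-KO minus WT on the log2(value + 1) scale. Dotted lines mark 0.6 in each direction. Only the intervals of *Nfkbiz* and *Nfkbia* leave out 0, and those of *Il6*, *Il1rn* and *Socs3* are the widest.

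Levels of different genes were compared per kilobase of the longest protein-coding transcript in GENCODE vM21. In WT, *Il18* had normalised read counts per kilobase of 62.4 and 28.8, *Nfkbia* of 27.3 and 30.6, and *Nfkbiz* of 26.3 and 19.1, so *Il18* and *Nfkbia* overlapped and *Nfkbiz* lay just under them. *Socs3* followed at 5.64 and 4.46. *Il1rn*, *Il6*, *Tnfaip3* and *Tnf* had WT means per kilobase between 0.727 and 2.89. In Rxra-KO, *Nfkbiz*, at 62.0 and 28.4, overlapped *Il18*, at 29.8 and 33.1, and *Nfkbia* was below both at 12.9 and 14.8.

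To place the set in its pathway, 158 other genes were listed by role, of which 148 were in the table and 7 (4.73%) were called. Of these, 2 were higher, against 1.32% of all genes, and 5 were lower, against 0.969%. Their median log2 fold change was -0.03, or -0.01 with genes at the floor in 1 group set to their bound. DESeq2 called 1 of them, *Clec4e*, and edgeR called 6.

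Ligands and receptors held no call. Of 22 other cytokine ligands, 0 were called by limma. At an unadjusted limma *p* under 0.05 there were 3, against 10.1% of all genes. These were *Il12b*, *Il23a* and *Csf2*, each higher in Rxra-KO, and *Il23a* and *Csf2* were at the floor of 3 reads in WT. *Il12b*, a subunit of IL-12 and IL-23, had 4 and 3 reads for WT, against 9 and 18 for Rxra-KO (log2 fold change 1.49, limma adjusted *p* = 0.382). *Tnfsf12*, which encodes TWEAK, stood at a log2 fold change of -0.58 (adjusted *p* by limma = 0.856). Of 14 receptors and decoys, 0 were called and 1 had an unadjusted *p* under 0.05. This was *Il10ra*, the ligand-binding chain of the IL-10 receptor, with values of 71.9 and 58.0 for WT, against 83.6 and 123 for Rxra-KO (log2 fold change 0.64, limma adjusted *p* = 0.421). *Il1rl1*, the IL-33 receptor, had a log2 fold change of 0.54, with groups that overlapped. The TNF receptors, the chains of the IL-6 receptor and those of the IL-18 receptor were all measured and not called.

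Between the receptors and NF-κB, 1 of 24 signalling genes was called. *Irak1*, a kinase recruited by MyD88, fell from 253 ± 23.1 to 137 ± 26.3 (SD, n = 2, log2 fold change -0.89, adjusted *p* by limma = 0.0246). This call was lost without WT replicate 1, WT replicate 2 or Rxra-KO replicate 1, where the log2 fold change was -0.99, -0.80 and -0.70. *Map3k14*, the kinase of the alternative NF-κB pathway, and *Rnf31*, of the linear ubiquitin ligase complex, had log2 fold changes of 0.98 and -0.94 and were not called. Of the 5 NF-κB subunits 0 were called and 0 had an unadjusted *p* under 0.05, with a median log2 fold change of 0.49. *Nfkb1*, which encodes p105 and p50, had values of 58.3 and 51.5 for WT, against 85.1 and 79.0 for Rxra-KO (limma adjusted *p* = 0.567), and *Nfkb2* had 5.30 and 23.3 against 17.3 and 29.3. In the JAK and STAT list, 0 of 7 genes were called and 1 had an unadjusted *p* under 0.05. *Jak1* stood at a log2 fold change of 0.63 (adjusted *p* by limma = 0.164). *Stat3* stood at -0.41, with groups that overlapped.

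Among 22 further feedback genes, *Dusp1*, a phosphatase that switches off MAP kinases, was the 1 call. It had 55 and 25 reads for WT, against 15 and 12 for Rxra-KO (log2 fold change -1.45, adjusted *p* by limma = 0.0409). It was -0.67 without WT replicate 1, with no call, -1.02 without Rxra-KO replicate 2, also with no call, and -2.23 without WT replicate 2. A filter at a mean value of 10 also ended the call (adjusted *p* by limma 0.0675). *Nkrf*, a repressor of NF-κB targets, and *Rnf11*, a partner of A20, had log2 fold changes of 1.54 and 0.85 and were not called. Of 9 genes that control the decay of cytokine mRNA 0 were called and 0 had an unadjusted *p* under 0.05. Among those with a mean value of at least 10, the 2 with the largest log2 fold changes were *Hnrnpd*, at -0.58, and *Zfp36l1*, at 0.46.

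Of 9 genes of cytokine maturation and release, 1 was called. *Pycard*, which encodes ASC, the adaptor that links inflammasome sensors to caspase-1, fell from 3431 ± 648 to 1314 ± 626 (SD, n = 2, log2 fold change -1.46, adjusted *p* by limma = 7.40e-08). Its values were 2973 and 3890 for WT, against 871 and 1756 for Rxra-KO. The log2 fold change lay between -1.96 and -0.95 when a library was left out, with a call each time and the smallest fall without Rxra-KO replicate 1. *Casp8* and *Adam17*, the protease that sheds TNF, had log2 fold changes of 0.78 and 0.09 and were not called.

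Of 20 genes that NF-κB induces, 1 was called higher and 2 lower, against 1.32% and 0.969% of all genes. Of these 20, 6 had at most 3 reads in every library. *Ccl2*, a chemokine for monocytes, had 1 and 3 reads for WT, against 30 and 15 for Rxra-KO (limma adjusted *p* = 0.0033). The depth-scaled ratio of its summed reads was 10.7, with an exact counting interval of 3.88 to 40.8, and the call was lost without Rxra-KO replicate 1, where the log2 fold change went from 2.81 to 2.05. *Clec4e*, the receptor Mincle, fell from 457 ± 6.82 to 242 ± 34.7 (log2 fold change -0.92, limma adjusted *p* = 0.00647), and *Saa3*, an acute-phase protein, from 361 ± 4.16 to 211 ± 101 (limma adjusted *p* = 0.0243). Both calls were lost without WT replicate 1, WT replicate 2 or Rxra-KO replicate 1, where *Clec4e* stood at -0.94, -0.91 and -0.77 and *Saa3* at -0.87, -0.85 and -0.35. Without Rxra-KO replicate 2, *Saa3* stood at -1.37 and was called, and it was not called by edgeR or after a filter at a mean value of 10. *Sdc4* and *Ier3* had log2 fold changes of 1.47 and -0.85 and were not called. Of 16 immediate early genes *Egr2* was the 1 call, higher by 2.46 on the log2 scale (limma adjusted *p* = 4.74e-08). It was 1.42 without Rxra-KO replicate 1, with no call, and 1.62 without WT replicate 2. *Junb* and *Jun*, both AP-1 subunits, had log2 fold changes of -1.68 and 1.24 and were not called.

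**Figure D4:**
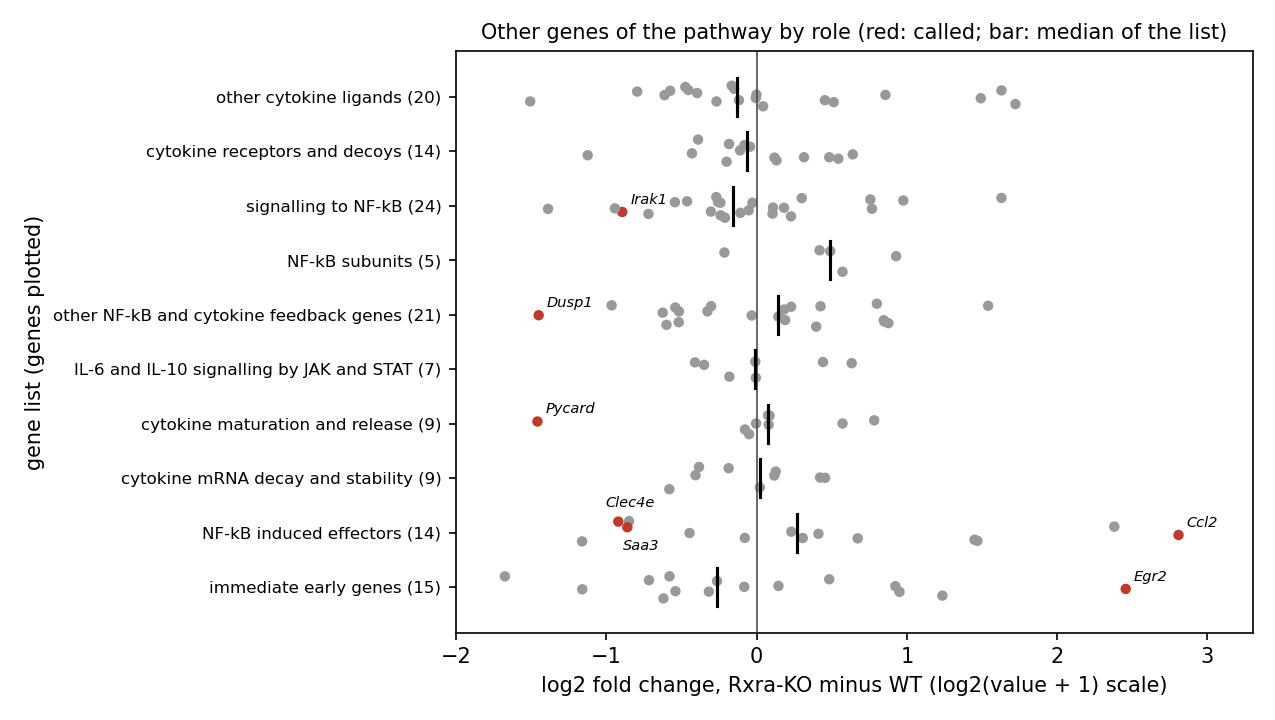
Log2 fold changes, Rxra-KO minus WT, of the listed pathway genes by role, with 1 point for each gene, leaving out genes at or under 3 reads in every library, and a bar at each list's median. The 7 called genes are red and named, and the medians lie between -0.26 for immediate early genes and 0.49 for NF-κB subunits.

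Markers of other cells that can make these cytokines held 1 call. Of the 4 measured neutrophil markers, 0 were called, with sums of 230 and 253 in WT against 188 and 240 in Rxra-KO, mostly from *Csf3r* and *Cxcr2*. The neutrophil markers *S100a8*, *S100a9* and *Ly6g* had no entry, nor had *Pax5*, *Cd3g*, *Cpa3* and *Krt19* of the other lists. B cell, T cell, mast cell and mesothelial markers had 0 calls among 5, 5, 5 and 6 genes by limma, with *Ms4a1*, *Lck* and *Lrrn4*, 1 each for B cells, T cells and mesothelial cells, at an unadjusted *p* under 0.05 (adjusted *p* by limma 0.335, 0.132 and 0.39). Their sums ranged from 17.4 to 113 in WT and from 19.4 to 95.6 in Rxra-KO. Of 6 dendritic cell markers *Cd209a* was called higher, with list sums of 46.9 and 55.3 in WT against 99.4 and 124. *Cd209a* gave most of both Rxra-KO sums and most of the rise, with a mean of 18.3 in WT against 72.7. The other 5 dendritic cell markers were not called, and 0 of them had an unadjusted limma *p* under 0.05. Each measured marker in these lists had at least 1 read in some library, and the part of these cells in the results was not tested.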

How the data were processed

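LPM RNA was amplified by the authors with a low-input full-length cDNA kit without molecular identifiers. Per the methods of the study, reads were quantified with kallisto 0.43.0, summarised to genes, filtered at 1 CPM and scaled by TMM. The methods name GRCh38 for these mouse libraries, so the reference is unsettled and no gene coordinates are printed beyond those of RefSeq promoters. The deposited values are a normalised read signal per library. Each equalled (reads + 0.5) times the library's value of 1 read, and 100% gave whole reads (tolerance 0.01 read).

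Log2(value + 1) was fitted with limma 3.58.1 under R 4.3.3, using its trended empirical Bayes step, no covariate, all 4 libraries, two-sided tests and Benjamini-Hochberg adjustment over 18364 genes, which all had a value of at least 1 in 2 libraries. This scale understates changes of low genes. EdgeR 4.0.16 and DESeq2 1.42.0 on recovered reads were alternatives. All were run on simulated data, with changes larger than those of the members and in genes with more reads than most members had. That run does not show how the tools perform at the depth of this set. A group was at the floor for a gene when neither of its libraries exceeded 3 reads. Prior degrees of freedom were 227, against 2 residual, so p-values rest on spread shared across genes. P-values measure spread between libraries, which may be technical. The study left out RNA-seq samples that did not group with their condition.

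The members and lists were chosen with earlier results of these data known. Named were all members, *Rxra*, *Rxrb*, *Lyz2*, every called list gene, in each list the 2 uncalled genes with the largest change among those whose mean reached 10, and the 3 profiles nearest to members whose mean reached 50. Marker lists are described by counts and sums, with the genes called.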

Additional observations from a re-analysis of the deposited data

How the results depend on the processing

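The number of called members was 0 in the reported fit and 1 with edgeR and with the replicate block, the call being *Nfkbiz* each time. EdgeR called 446 of all 18364 genes. Leaving out each library in turn gave 0 to 1 called members, with the lone library of a group assumed to vary like the others. Same-numbered libraries were alike in depth, with 652542 reads in WT and 629030 in Rxra-KO for replicate 1, and 947372 and 1047021 for replicate 2. Their deviations from the group means correlated at 0.0629 across 10049 genes. The block moved the calls from 421 to 540 over all genes and the adjusted *p* of *Nfkbiz* to 0.0139 (limma). Over all genes, 246 were called with DESeq2, 0 with limma without a mean-variance trend, and 236 to 377 with a library left out. For the pathway lists, 7 calls became 1 with DESeq2, 0 without the trend, 4 at an adjusted *p* under 0.01 and 2 to 6 with a library left out. The causes were not tested. Of 75 refitted log2 fold changes of members, 67 kept their direction and their side of the threshold, 4 gained a call, all of *Nfkbiz*, and 4 changed direction. *Il6* became -0.19 at a pseudocount of 0.1 and lay between -1.64 and 1.75 with a library left out, and *Il18* lay between -0.97 and 0.12. A filter at a mean value of 10 left 3 members, *Nfkbia*, *Nfkbiz* and *Il18*. Depth limits the set, since 5 of 8 members had a mean under 10 reads, as did 51.8% of all genes.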

Other observations

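Related genes of the IL-12 and SOCS families were looked at after their values were seen. In the IL-12 family, *Il12b* had 4 and 3 reads for WT, against 9 and 18 in the libraries labelled Rxra-KO. *Il23a*, the subunit that pairs with it in IL-23, had 0 and 1 reads against 4 and 5. *Il12rb1*, the receptor chain shared by IL-12 and IL-23, had 0 and 0 reads against 6 and 3. *Il12b*, *Il23a*, *Il12rb1* and *Il27* were higher in both libraries labelled Rxra-KO, and none passed over all genes (limma adjusted *p* = 0.382, 0.412, 0.231 and 0.936). The groups did not overlap for 38.1% of all genes, and *Il23a*, *Il12rb1* and *Il27* were at the floor of 3 reads in WT. *Ebi3*, the shared subunit of IL-27, was lower in both, with 3 and 7 reads against 2 and 0 (limma adjusted *p* = 0.538). *Il12a* had 1 and 1 reads against 6 and 0. *Il12rb2*, the other chain of the IL-12 receptor, had 4 and 0 reads against 0 and 4, and *Il27* had 2 and 3 against 3 and 6.

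Among SOCS genes other than *Socs3*, *Socs6* had 14 and 20 reads for WT, against 30 and 48 for Rxra-KO (log2 fold change 1.06, adjusted *p* by limma = 0.224). *Socs5* had 22 and 32 reads against 13 and 16 (log2 fold change -0.89, adjusted *p* by limma = 0.487). The groups overlapped for *Cish*, *Socs2*, *Socs4* and *Socs7*.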
